A study of Saccharomyces cerevisiae with 10 samples.

Results

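The RNA polymerase I and III machinery of the yeast Saccharomyces cerevisiae was compared between the strains DJ28 and FY23 at the level of messenger RNA. It was taken as 37 genes: subunits of the 2 polymerases, factors that place them on their genes, and the repressor MAF1. The list is not complete, and the shared subunits RPB5, RPO26, RPB8 and RPB10 were read with neighbouring genes instead. The members were found by gene symbol, and each of the 37 had 1 of the 6277 rows of the array. An older alias that belongs to another gene in the present annotation was not used. Of the 37 members 35 had enough values to be tested, among 5642 genes or unnamed rows tested in all. RPC10 and RPC17 had too few values, with 5 and 4 replicates.

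RNA polymerase I transcribes one kind of gene, the ribosomal DNA repeat, into the precursor of the large ribosomal RNAs. RNA polymerase III transcribes the transfer RNA genes, the gene of the small 5S ribosomal RNA and those of a few other short RNAs. Together these products make up most of the RNA of a growing yeast cell, and both polymerases are known to slow when nutrients run out. The Ras/cAMP pathway carries the glucose signal to protein kinase A, which phosphorylates Maf1 and thereby keeps it from repressing RNA polymerase III. The arrays measured the messenger RNAs of the machinery, and neither the activity of the polymerases nor their products.

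The series title describes a mutant with a constitutively active Ras/cAMP pathway, and the labels give PDE2, the gene of the high-affinity cyclic AMP phosphodiesterase, as a keyword. The sources used here give no genotype for DJ28 or FY23 and no growth condition. Total RNA of both strains was hybridised to each of 10 arrays with 2 dyes, DJ28 in Cy3 and FY23 in Cy5 on arrays 1 to 5, and DJ28 in Cy5 and FY23 in Cy3 on arrays 6 to 10. Arrays 6 and 7 differed far less than any other pair (r = 0.988, against at most 0.694) and were averaged to a single replicate. Of the resulting 9 replicates, 5 carry DJ28 in Cy3 and 4 carry it in Cy5. The deposited ratios also grouped in other pairs. The r was 0.694 for arrays 1 and 2, 0.675 for arrays 3 and 8, of opposite dye orientation, and 0.618 for arrays 9 and 10. It was -0.008 for arrays 3 and 4, of the same orientation. The fit took the 9 replicates as independent, and what the grouping comes from was not tested.

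Every value below is a log2 ratio of DJ28 over FY23, after each array was centred on its median. A positive value is therefore higher in DJ28 relative to the median gene, and levels of different genes were not measured. The numerator of the deposited ratios is not stated, and the direction used is the one in which PDE2 is lower in DJ28, with a log2 ratio of -1.96 (standard error 0.168, limma's adjusted p = 0.00153, lower on 8 of 8 replicates). This direction is likely and not settled, and in the opposite one every higher and lower below turns together. Nothing in the labels ties the arrays to separate cultures, and the p-values cover only array-to-array spread, which could be technical. Array 1 had values for 11 members and array 2 for 26, against 34 to 37 on arrays 3 to 10. No batch is labelled. Arrays 4, 5, 9 and 10 differed from the rest in holding cells at the highest value of the table, and values within these 4 arrays, and within the other 6 where a fit could be made, are given for the members described most closely.

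No member of the machinery differed between the strains in limma's moderated test (adjusted p under 0.05), while 0.549% of all genes tested did. At an unadjusted p under 0.05, 3 of 35 members were on the higher side in DJ28 (RPA34, RRN5 and TFC3) and 3 on the lower side (RPA135, RRN6 and RPO31). That is 8.57% of the members in each direction, against 5.96% of all genes higher and 7.39% lower. The fitted differences of the members ran between -0.38 and 0.39, with 23 positive (65.7%, against 56.1% of all genes tested) and 12 negative. Their median was 0.06 and the median over all genes tested was 0.032. The median size of a difference, sign left aside, was 0.126 for the members and 0.14 for all genes.

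The intervals give the range of each gene's difference that array-to-array spread allows. They were taken gene by gene and may not cover spread between cultures. The 95% interval lay inside a 2-fold change in either direction for 35 of 35 members, as for 95.6% of all genes tested. It lay inside a 1.5-fold change for 25 members (71.4%), as for 74.4% of all genes. The 10 members with a wider or more distant interval were RPA135, RPA34, RPA14, RPA12, RRN5 and RRN10 of polymerase I and RPO31, RPC53, TFC3 and TFC7 of polymerase III. In total RNA, fewer cells with a transcript and less of it in each cell cannot be told apart.

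The plot of all members by replicate gives each replicate's ratio with the fitted difference over it. The replicates of every member lie on both sides of 0, so that 0 of 35 kept 1 sign throughout, against 2.13% of all genes tested.

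**Figure D1:**
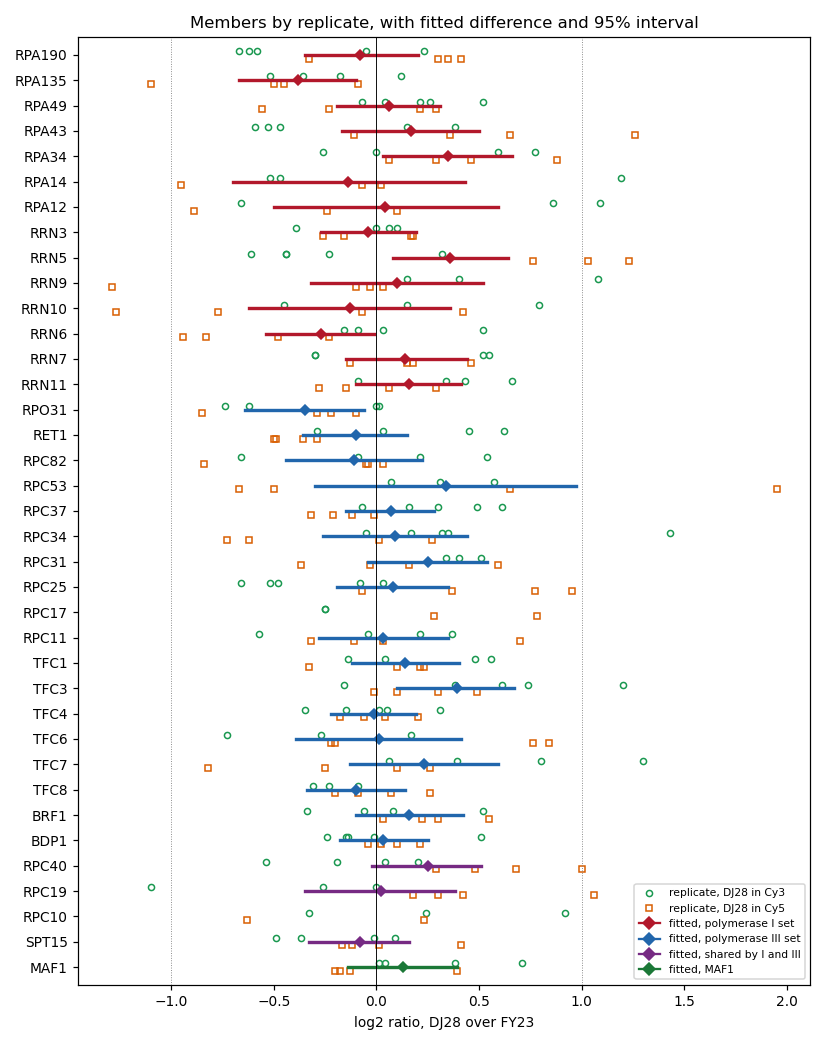
Log2 ratio of DJ28 over FY23 (horizontal axis) for each of the 37 members (rows), with open circles for replicates with DJ28 in Cy3, open squares for replicates with DJ28 in Cy5, and a diamond with a bar for the fitted difference and its 95% interval. Dotted lines mark a 2-fold change, and every fitted interval lies between them. RPC10 and RPC17 have no fitted value.

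The catalytic core of RNA polymerase I consists of its largest subunits, RPA190 and RPA135, which form the active centre. RPA135 had the most negative difference of the members. Its ratios were -0.18, -0.36, 0.12 and -0.52 on arrays 2 to 5, and -1.12, -1.08, -0.09, -0.45 and -0.50 on arrays 6 to 10. It was thus lower in DJ28 on 7 of 8 replicates, in both dye orientations, and array 4 was the exception. The fitted difference was -0.38 (standard error 0.127, 95% interval -0.67 to -0.10), a 1.31-fold change that missed the threshold after adjustment (limma, adjusted p = 0.275). Within the set of arrays 4, 5, 9 and 10 it was -0.34.

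The other core gene, RPA190, lay near 0 with a wide spread. Its ratios were -0.58, -0.67, -0.62, 0.23 and -0.05 on arrays 1 to 5, and -0.32, -0.35, 0.30, 0.41 and 0.35 on arrays 6 to 10. Negative and positive values stood in both dye orientations, and the fitted difference was -0.08 (standard error 0.126, adjusted p = 0.804). The sign differed between the array sets, with 0.23 on arrays 4, 5, 9 and 10 and -0.32 on the rest.

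Among the other subunits specific to RNA polymerase I, RPA34 and RPA49 form a heterodimer that helps the enzyme start and elongate. RPA34 had ratios of -0.26, 0.77, 0.00 and 0.59 on arrays 2 to 5, and 0.83, 0.93, 0.06, 0.46 and 0.29 on arrays 6 to 10. Of its 8 replicates, 7 were above 0, array 2 was below, and array 4 was barely above. The difference was 0.35 (standard error 0.142, interval 0.03 to 0.66, adjusted p = 0.344), and it was 0.34 within arrays 4, 5, 9 and 10. The partner subunit RPA49 was at 0.06 (standard error 0.112), with 6 of 9 replicates above 0.

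RPA43 and RPA14 form the stalk of RNA polymerase I, through which RPA43 binds the initiation factor Rrn3. RPA43 was at 0.17 (standard error 0.153), and its mean was 0.54 with DJ28 in Cy5 and -0.21 with DJ28 in Cy3. RPA43 and RPA190 lie next to each other and are transcribed away from each other, so that they share an upstream region. Their ratios were close on arrays 1 to 3, between -0.67 and -0.47, and far apart on arrays 6 and 7, where RPA43 stood at 1.26 on both. On arrays 4, 5, 8, 9 and 10 RPA43 was at 0.38, 0.15, 0.65, -0.11 and 0.36. RPA190 was at 0.23, -0.05, 0.30, 0.41 and 0.35 on the same arrays. RPA14 was at -0.14 (standard error 0.247) and RPA12, the subunit that aids RNA cleavage, at 0.04 (standard error 0.24). These 2 small genes had 6 replicates each and among the widest spreads of the machinery, with SDs of 0.74 and 0.80.

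The initiation factors of RNA polymerase I are Rrn3, which makes the enzyme competent to start, the upstream activating factor and the core factor. RRN3 was at -0.04 (standard error 0.104), and its replicates stayed between -0.39 and 0.18. In the upstream activating factor, RRN9 was at 0.10 (standard error 0.187) and RRN10 at -0.13 (standard error 0.217). The third listed member of that factor, RRN5, split by dye. Its ratios were -0.44, -0.61, -0.44, 0.32 and -0.23 on arrays 1 to 5, but 1.21, 1.24, 0.76 and 1.03 on arrays 6, 7, 8 and 10. All replicates with DJ28 in Cy5 lay above all those with DJ28 in Cy3, and the means were 1.01 ± 0.24 with DJ28 in Cy5 (SD, n = 3) and -0.28 ± 0.36 with DJ28 in Cy3 (SD, n = 5). The strain difference of 0.36 (standard error 0.126, adjusted p = 0.287) is therefore a mean over orientations of opposite sign, and it was 0.25 within arrays 1, 2, 3, 6, 7 and 8. The dye term of RRN5, 0.64, passed limma's test (adjusted p = 0.0341), as did that of 3.05% of all genes and of no other member.

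The core factor binds the promoter and holds the TATA-binding protein. Its subunit RRN6 had ratios of 0.52, -0.16, 0.03 and -0.09 on arrays 2 to 5, and -0.93, -0.96, -0.23, -0.48 and -0.83 on arrays 6 to 10. Every array with DJ28 in Cy5 lay below every array with DJ28 in Cy3. The difference was -0.27 (standard error 0.12, adjusted p = 0.369), and -0.34 within arrays 4, 5, 9 and 10. RRN7, a relative of the polymerase II factor TFIIB, was at 0.14 (standard error 0.133), and RRN11 at 0.16 (standard error 0.114), each with 5 of 8 replicates above 0. Within arrays 4, 5, 9 and 10 RRN7 was at 0.42 and RRN11 at 0.15.

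RPC40 and RPC19 encode the pair of subunits that RNA polymerases I and III share and on which each enzyme is assembled. Their products bind each other, and both genes had higher ratios in one dye orientation. RPC40 was at 0.25 (standard error 0.119, adjusted p = 0.391), with means of 0.61 with DJ28 in Cy5 and -0.12 with DJ28 in Cy3. RPC19 was at 0.02 (standard error 0.163), with means of 0.49 with DJ28 in Cy5 and -0.45 with DJ28 in Cy3. RPC10, a small subunit of all 3 nuclear polymerases, had replicates between -0.63 and 0.92.

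The catalytic core of RNA polymerase III is formed by RPO31 and RET1, the counterparts of RPA190 and RPA135. RPO31 had ratios of 0.00, -0.62, 0.01 and -0.74 on arrays 2 to 5, and -0.82, -0.87, -0.10, -0.29 and -0.22 on arrays 6 to 10. No array was clearly above 0, and 6 of 8 replicates were below. The difference was -0.35 (standard error 0.13, interval -0.64 to -0.06, adjusted p = 0.312), with nearly equal means of -0.36 with DJ28 in Cy5 and -0.34 with DJ28 in Cy3. Within arrays 4, 5, 9 and 10 it was -0.31. RET1 was at -0.10 (standard error 0.117), and its mean was -0.41 with DJ28 in Cy5 and 0.20 with DJ28 in Cy3. The fitted differences of the 4 core genes of both polymerases were thus all negative, and each missed the threshold after adjustment. All 4 are genes of 3000 bases or more, and 80.8% of all tested genes of that length were negative. RPA190 and RET1 lay near 0 and became positive, at 0.12 and 0.07, with the trend with length removed (below).

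The specific subunits of RNA polymerase III form small groups within the enzyme. RPC82, RPC34 and RPC31 make up the trimer that meets TFIIIB at the start of transcription, and they were at -0.11, 0.09 and 0.25 (standard errors 0.15, 0.161 and 0.13). RPC53 and RPC37 form the pair needed for correct termination, and were at 0.34 and 0.07 (standard errors 0.282 and 0.0963). RPC53 had ratios of 0.07, 0.57 and 0.31 on arrays 3 to 5, and -0.60, -0.40, -0.67, 1.95 and 0.65 on arrays 6 to 10. Its value on array 9 was the highest of any member on any array, and its SD over replicates, 0.87, was the widest. Within arrays 4, 5, 9 and 10 the difference of RPC53 was 0.87 as well, and without array 9 it was 0.07.

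RPC25 and RPC17 form the stalk of RNA polymerase III. RPC25 was at 0.08 (standard error 0.124), with means of 0.51 with DJ28 in Cy5 and -0.34 with DJ28 in Cy3. RPC17 had -0.25 on both arrays 4 and 5, and 0.78 and 0.28 on arrays 9 and 10, and no value elsewhere. RPC11, the cleavage subunit, was at 0.03 (standard error 0.142) with 4 of 8 replicates above 0.

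TFIIIC binds the promoter elements inside transfer RNA genes and brings in TFIIIB. Its subunit TFC3, which contacts the downstream element, had the most positive difference of the machinery. TFC3 had ratios of 0.74, 1.2, -0.16, 0.38 and 0.61 on arrays 1 to 5, and 0.32, 0.27, 0.49, -0.01 and 0.10 on arrays 6 to 10. It was higher in DJ28 on 7 of 9 replicates, and the highest values came from arrays 1 and 2, which held the fewest genes. The difference was 0.39 (standard error 0.131, interval 0.10 to 0.67, adjusted p = 0.277). It was 0.27 within arrays 4, 5, 9 and 10 and 0.49 within the rest. With arrays 1 and 2 left out it was 0.25 (limma, unadjusted p = 0.0771).

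The other 5 subunits of TFIIIC had smaller differences. TFC7 was at 0.23 (standard error 0.161) and TFC1 at 0.14 (standard error 0.117). These 2 form one half-complex with TFC4, the subunit that recruits TFIIIB, which was at -0.01 (standard error 0.0949). TFC6 was at 0.01 (standard error 0.177) and TFC8 at -0.10 (standard error 0.108). Over the 6 genes the median was 0.076, with 4 positive (66.7%, against 56.1% of all genes tested) and 2 negative. Within arrays 4, 5, 9 and 10 TFC1 was at 0.34 and TFC7 at 0.20.

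TFIIIB places RNA polymerase III at the start site and consists of BRF1, BDP1 and the TATA-binding protein. BRF1, the TFIIB-related subunit that Maf1 acts on, was at 0.16 (standard error 0.116), with 6 of 8 replicates above 0. BDP1 was at 0.03 (standard error 0.0988). SPT15, the TATA-binding protein used by all 3 polymerases, was at -0.08 (standard error 0.112).

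MAF1 encodes the repressor of RNA polymerase III. Its ratios were 0.71, 0.38, 0.01 and 0.04 on arrays 2 to 5, and 0.35, 0.42, -0.13, -0.18 and -0.20 on arrays 6 to 10. With DJ28 in Cy3 no value was below 0, and with DJ28 in Cy5 the values above 0 came from the averaged pair of arrays 6 and 7. The fitted difference was 0.13 (standard error 0.118, interval -0.14 to 0.39, adjusted p = 0.657), and it was -0.08 within arrays 4, 5, 9 and 10. The phosphorylation of Maf1, through which protein kinase A acts on it, was not measured by these arrays.

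The plot of fitted differences places the members under the distribution of all genes. The polymerase I set (14 genes: the specific subunits, RRN3, the core factor, RRN5, RRN9 and RRN10) ran between -0.38 and 0.36. The polymerase III set (17 tested of 18: the specific subunits, TFIIIC, BRF1 and BDP1) ran between -0.35 and 0.39. Both spans lie within the bulk of the distribution.

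**Figure D2:**
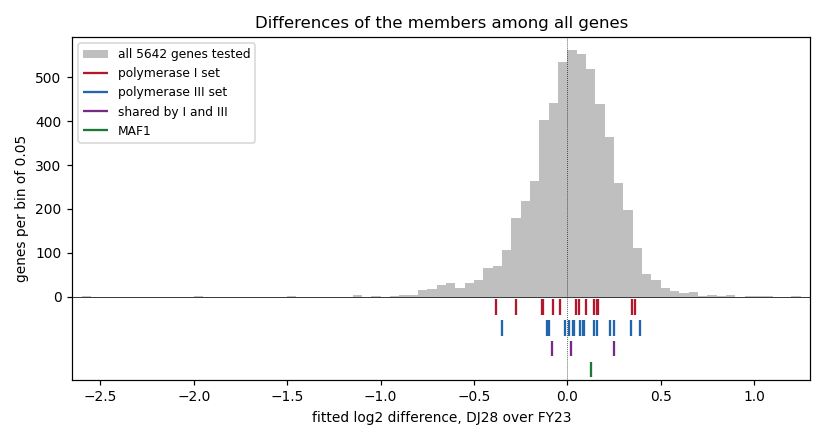
Number of genes per bin of 0.05 (vertical axis) by fitted log2 difference of DJ28 over FY23 (horizontal axis) for all 5642 genes tested, with a tick for each member below, in rows for the polymerase I set, the polymerase III set, the subunits shared by I and III with SPT15, and MAF1. The members spread on both sides of 0, between -0.38 and 0.39.

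Polymerase I was then set against polymerase III. The median difference was 0.052 for the polymerase I set and 0.066 for the polymerase III set, and the polymerase I minus polymerase III median was -0.013. In the polymerase I set 8 genes were positive (57.1%) and 6 negative, and in the polymerase III set 12 were positive (70.6%) and 5 negative. Of all genes tested, 56.1% were positive. Subunits and factors gave medians of 0.044 and 0.099 for polymerase I, and 0.066 and 0.088 for polymerase III.

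The medians also varied more between replicates than between the polymerases. The polymerase I median was -0.482, -0.281, 0.136, 0.135 and 0.024 on arrays 1 to 5, and -0.150, -0.122, 0.057 and 0.209 on arrays 6 and 7, 8, 9 and 10. The polymerase III median was 0.171, 0.039, 0.074, 0.028 and 0.076 on arrays 1 to 5, and -0.176, -0.121, 0.072 and 0.013 on the same later replicates. The polymerase I median lay below the polymerase III median on 5 of 9 replicates and above it on 4.

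Their difference was -0.072 ± 0.259 (SD, n = 9), a mean well inside its spread. It was farthest from 0 on array 1, at -0.652, where 4 genes of the polymerase I set and 7 of the polymerase III set had a value. Array 2, with 10 and 13 genes, gave -0.32, and on the remaining replicates the difference stayed between -0.052 and 0.196. The plot of set medians by replicate shows the gap on the sparse arrays 1 and 2 and its changing sign elsewhere.

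**Figure D3:**
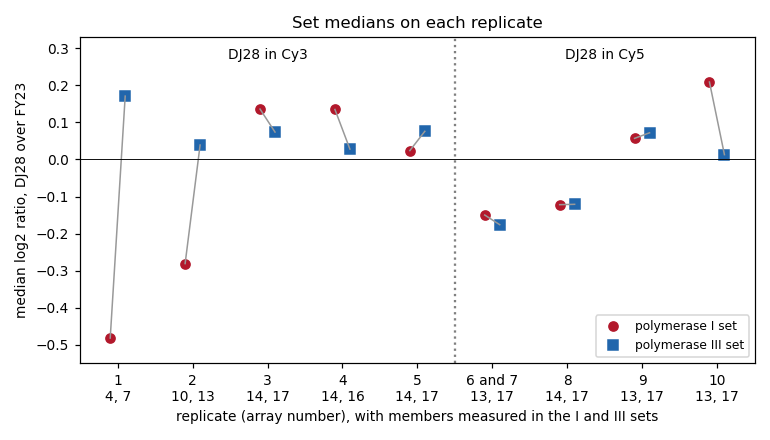
Median log2 ratio of DJ28 over FY23 (vertical axis) of the polymerase I set (circles) and the polymerase III set (squares) on each of the 9 replicates (horizontal axis, with the number of genes measured in each set beneath the array number); a dotted line parts the dye orientations. The symbols lie farthest apart on array 1, at -0.482 for polymerase I and 0.171 for polymerase III.

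The swap of the dyes allows each member's ratio to be compared between the 2 orientations. Of the 35 members tested, 24 (68.6%) had means of opposite sign in the orientations, as had 58.2% of all genes tested. The other 11 kept their sign, and among them were RPA135, RPO31, RPA34 and TFC3. For RPA135 the mean was -0.53 with DJ28 in Cy5 and -0.24 with DJ28 in Cy3. TFC3 averaged 0.22 with DJ28 in Cy5 and 0.55 with DJ28 in Cy3, and RPA34 averaged 0.42 with DJ28 in Cy5 and 0.27 with DJ28 in Cy3. RRN6 changed sign, with -0.62 with DJ28 in Cy5 and 0.07 with DJ28 in Cy3. The plot of one orientation against the other shows these genes among the rest.

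**Figure D4:**
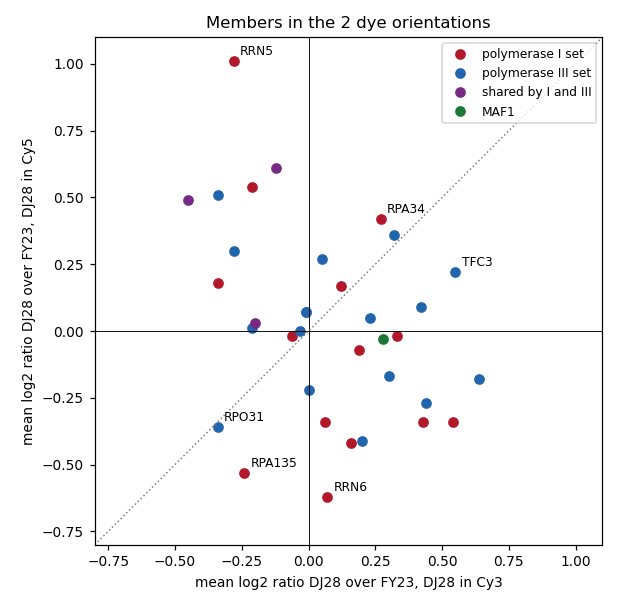
Mean log2 ratio of DJ28 over FY23 with DJ28 in Cy5 (vertical axis) against that with DJ28 in Cy3 (horizontal axis), 1 point for each of the 35 members tested; the dotted line marks equal means. Many points lie in the upper left and lower right, where the sign differs between orientations, and RRN5 lies farthest from the line, at 1.01 and -0.28.

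The 4 core genes are among the 6 longest of the machinery, and length moved with the difference over the whole array. Length is the coding length annotated in the R64 assembly, any intron included. Genes shorter than 1000 bases had a median of 0.12 (1835 genes) and those of 3000 bases or more had a median of -0.14 (468 genes, 80.8% negative). Spearman's rho between length and difference was -0.43 over 5141 named genes and -0.23 over the 35 members. Genes measured on the same arrays are not independent points, and rho on single replicates varied between -0.44 on array 10 and 0.20 on array 4.

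The 6 members of 3000 bases or more are RPA190 (4995 bases), RPO31 (4383), RPA135 (3612), TFC3 (3573), RET1 (3450) and TFC4 (3078). Their median was -0.09, and TFC3 was the 1 positive value among them. When the trend with length was removed from each array, RPA135 stood at -0.24 (adjusted p = 0.388) and RPO31 at -0.18 (adjusted p = 0.526), while RPA190 and RET1 became positive, at 0.12 and 0.07. TFC3, which lies above other genes of its length, stood at 0.54 (adjusted p = 0.112). Among the shorter members, RRN6 moved from -0.27 to -0.16, RPA34 from 0.35 to 0.26 and RRN5 from 0.36 to 0.31. No member passed the test in that fit either, with 32 named genes called.

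**Figure D5:**
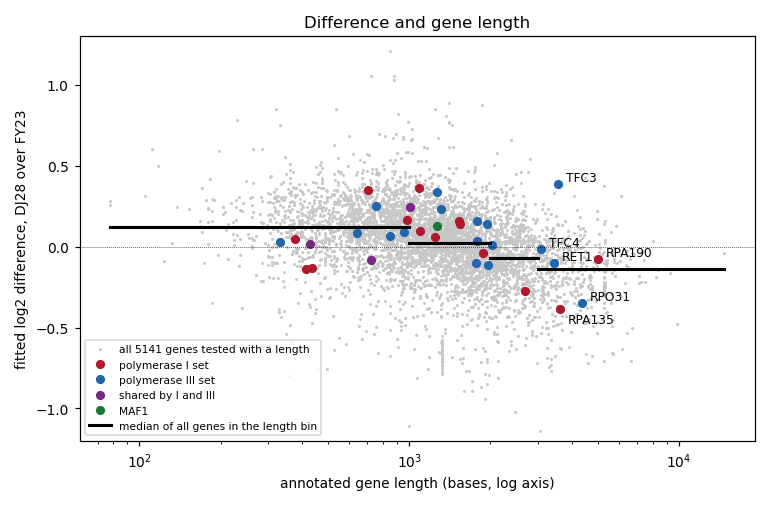
Fitted log2 difference of DJ28 over FY23 (vertical axis) against annotated gene length in bases (horizontal log axis) for 5141 named genes (grey points) and the 35 members tested (coloured points), with a black line at the median of all genes in each of 4 length classes; 3 genes lie outside the plotted range. The medians descend between 0.12 for the shortest class and -0.14 for the longest, and TFC3 lies above the longest class while RPA135 and RPO31 lie below it.

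Genes that work beside the machinery were read from 7 lists, with 72 genes on the array, and none of those tested passed limma's adjusted test. Their values still hold the trend with length unless its removal is stated. At an unadjusted p under 0.05 there were 1 higher and 2 lower among the polymerase II subunits, 2 higher among the transfer RNA and polymerase III factors, 2 lower among the factors that act on Maf1, 1 higher among the assembly genes and 0 in the other 3 lists, where 5.96% of all genes were higher and 7.39% lower. Of 7 subunits specific to RNA polymerase II, with a median of 0.14, the largest subunit RPO21 was at -0.45 (adjusted p = 0.175) and RPB11 at 0.42 (adjusted p = 0.298). The second-largest subunit RPB2, named after its value was seen, was at -0.37 (adjusted p = 0.241). With the length trend removed, RPO21 was at -0.24 and RPB2 at -0.22. The 4 other subunits that all 3 polymerases share had a median of 0.18, led by RPO26 at 0.29 and RPB8 at 0.21.

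Among 7 other factors of the ribosomal DNA the median was 0.04, with the topoisomerase TOP1 at 0.23 and the HMG protein HMO1 at 0.20 as the largest. Of 22 genes for transfer RNA maturation and other polymerase III factors 19 were tested, with a median of 0.09. POP4, a subunit of RNase P, was at 0.36 (adjusted p = 0.594), and PZF1, which encodes TFIIIA, the factor of the 5S gene, at -0.32 (adjusted p = 0.654). The 2 genes of this list with an unadjusted p under 0.05, named after their values were seen, were LHP1, the yeast La protein, at 0.31 and NHP6A, an HMG protein, also at 0.31.

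The kinases, phosphatases and transport factors that act on Maf1 had a median of 0.01 over 13 genes tested. CKA2, a catalytic subunit of casein kinase II, was at 0.66 (standard error 0.425, adjusted p = 0.506). MSN5, the exportin that carries Maf1 out of the nucleus, was at -0.52 (adjusted p = 0.209) and lower in DJ28 on 6 of 7 replicates. SCH9, a kinase that phosphorylates Maf1, was named after its value was seen. It was at -0.43 (adjusted p = 0.275), likewise lower on 6 of 7.

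The 9 transcription regulators of growth genes had a median of 0.06, with IFH1 at 0.23 and RAP1 at -0.22. The 7 genes for assembly and import of the polymerases had the highest median of the lists, 0.23. BUD27, a prefoldin-like factor of polymerase assembly, was at 0.66 (adjusted p = 0.254) and higher in DJ28 on 6 of 8 replicates. IWR1, which helps to import RNA polymerase II, was at 0.39 (standard error 0.345, adjusted p = 0.639).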

How the data were processed

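The deposited table of the authors holds 1 log2 ratio of the dyes per row and array (the scale was read from the values, since the labels give none). How the background was corrected, the arrays normalized or cells left empty is not given in any source used here. Ratios were read as Cy5 over Cy3. The 13 cells at the upper limit of the table, 0 of them of a member, were set to missing. Array medians were set to 0, and several rows of one gene were averaged. Platform annotation named 5663 rows; the R64 gene table gave current names, neighbours and lengths.

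Strain and dye were the terms of a linear model run through lmFit and eBayes of limma 3.58.1 (R 4.3.3). A gene needed values on 3 replicates of each orientation. P-values are two-sided, adjusted by the Benjamini-Hochberg method over all 5642 genes or rows tested, with a threshold of 0.05. The steps were tested on simulated data. The number of arrays limits the precision.

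All 37 members are named. From each list of neighbouring processes, genes past the test were to be named, otherwise the 2 largest differences. Members and lists were chosen with earlier results of these data known. Promoter and protein sequences were not analysed here.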

Additional observations from a re-analysis of the deposited data

Results flagged for a closer look

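Within the dye orientations, 58 groups of 4 or 5 replicates were searched for a replicate far from the others, of which chance alone marks about 1 in 20, and 5 were found. With DJ28 in Cy5, the averaged arrays 6 and 7 stood apart for 4 members. RPA190 was at -0.33 there, against 0.30 to 0.41 on the other replicates of that orientation. RRN9 was at -1.29 (others -0.10 to 0.03), RPC82 at -0.84 (others -0.05 to 0.03) and MAF1 at 0.39 (others -0.20 to -0.13). With DJ28 in Cy3, RPC34 was at 1.43 on array 3, against -0.05 to 0.35. The ratio of RRN5 differed between the dye orientations, with a dye term of 0.64 (limma, adjusted p = 0.0341).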

How the results depend on the processing

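No member passed the adjusted test under any of 26 alternatives, 10 of which left out 1 array. The lowest adjusted p of a member in any of them was 0.0603, for RPA135 with array weights. TFC3 kept its sign in all 26 alternatives, and RPA135, RPA34 and RPO31 kept theirs in the 24 in which each could be fitted. RRN5 was at -0.28 and RRN6 at 0.07 with only arrays with DJ28 in Cy3, the sign opposite to that over all arrays. The count of members with an unadjusted p under 0.05 was 6. It was 0 with no centring, 2 with arrays 6 and 7 left out, 2 with only arrays with DJ28 in Cy3, 1 with a value on all 10 arrays (9 members tested) and 1 with only arrays 1, 2, 3, 6, 7 and 8 (11 members tested). With the trend with length removed the count was 4, and RRN6 and RPO31 were no longer in it. Leaving out 1 array gave between 3 and 6, with 3 without array 5, where 26 members could be tested. Other alternatives gave more: 9 of 34 members with only arrays 4, 5, 9 and 10, 8 with all 10 arrays counted apart, 8 with a dye effect in each array set, 8 with only arrays with DJ28 in Cy5, and 7 with arrays scaled to a common spread or with array weights. Over the alternatives the median difference of the polymerase I set ran between -0.047 and 0.178, and the median difference of the polymerase III set between 0.035 and 0.125. The polymerase I minus polymerase III median ran between -0.126, with no centring, and 0.143, with only arrays 1, 2, 3, 6, 7 and 8. With at least 2 replicates of each orientation, RPC10 was at 0.04 and RPC17 at 0.14 (limma, adjusted p = 0.959 and 0.744). The 2 alternatives for gene length were chosen after the data were seen. Each ratio pairs the strains on 1 array, and arrays were not paired across the dye orientations, which share no replicate numbers.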
